A study of Arabidopsis thaliana with 10 samples.

Results

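The sites described here are 330 positions of the Arabidopsis thaliana genome at which a peak summit was called for SEPALLATA3 (SEP3) on its own and no summit was called within 200 bp for the complex of SEP3 with AGAMOUS (AG). They were selected on the peak calls themselves. A summit is a base of locally highest signal, and a peak region can hold more than 1. A site of this kind, called unshared here, was a summit of SEP3 replicate 4. It had another SEP3 summit within 200 bp in at least 1 of replicates 1, 2 and 3. It had no SEP3-AG summit within 200 bp in any of 3 SEP3-AG libraries. Taking only the best summit of each peak region left 285 sites. Of the 8916 summits of SEP3 replicate 4, 2252 were seen again in another SEP3 library, and the 330 sites were 14.7% of these (95% Wilson interval 13.3 to 16.2%). The number rested on 2 of the SEP3 libraries: it was 120 (9.80% of the replicated sites) without replicate 3, and 49 (5.82%) when replicate 4 was left out and the sites were taken from replicate 3. The name says only that no SEP3-AG summit was near, since 41 of the 330 sites (12.4%) lay inside a SEP3-AG peak region and 31 had a summit within 200 bp for SEP3Δtet-AG, a complex with an altered SEP3. Of all 8916 summits, 42.1% had no SEP3-AG summit within 200 bp. The remaining 1922 of the 2252, which had a SEP3-AG summit, are called shared sites and were used for comparison. The 9 lists of the series held 43308 summits in all.

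The libraries were made by DNA-affinity purification, in which tagged proteins made in vitro in wheat germ extract pull down fragments of amplified, naked genomic DNA. All samples used DNA of 2-week-old Col-0 seedlings. The groups were SEP3-3FLAG alone (SEP3, 4 libraries), SEP3-3FLAG with AG-5MyC (SEP3-AG, 3 libraries), SEP3Δtet-3FLAG with AG-5MyC (SEP3Δtet-AG, 2 libraries) and 1 input DNA sample, which was the control of all 9 peak lists and for which no list was analysed here. SEP3Δtet is a splice variant of SEP3 that lacks part of the region used for tetramerisation. The 2 heteromeric complexes were purified through FLAG and then Myc and SEP3 through FLAG only, so the protein and the purification cannot be told apart in any comparison of SEP3 with SEP3-AG. The DNA carried no chromatin and no methylation of the plant, and the data describe DNA binding and not gene activity.

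SEP3 and AG belong to the MADS family of transcription factors, which set the identity of floral organs. They bind DNA as dimers through the N-terminal MADS domain and can join into tetramers that hold a pair of binding sites on a DNA loop. The sequence bound by a dimer is the CArG box, a run of A and T between C and G ends. SEP3 can form homomeric complexes, and with AG it forms the complexes that specify stamens and carpels and end the growth of the floral meristem.

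The sequences below are shown so that the boxes and the bases beside them, which differed between the unshared and the shared sites, can be read. They are the plus strand of the reference chromosomes from RefSeq (TAIR10.1), with 15 bases on each side of the box, and capitals mark the 10 bases of the box. A CArG box was CC, 6 A or T, and GG. A box that had lost the inner C or G at one end (CC, 7 A or T, G, on either strand) is called one-sided. A box with a single C and a single G at its ends (C, 8 A or T, G) is called open, and an open box that reads CTA, 4 A or T, TAG is called a symmetric open box. The first 4 sites carry symmetric open boxes.
AT5G44900 (chr5:18132916-18132955): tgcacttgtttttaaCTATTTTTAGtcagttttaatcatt
CRK (chr3:18751522-18751561): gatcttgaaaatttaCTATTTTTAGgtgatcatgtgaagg
VLN3 (chr3:21251437-21251476): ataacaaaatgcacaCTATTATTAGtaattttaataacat
GDI (chr5:2963556-2963595): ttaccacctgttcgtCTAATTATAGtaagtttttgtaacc
AT5G41660 carries an open box that is not symmetric.
AT5G41660 (chr5:16660979-16661018): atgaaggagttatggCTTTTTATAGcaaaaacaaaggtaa
The next 5 unshared sites hold one-sided boxes.
AT4G11970 (chr4:7179730-7179769): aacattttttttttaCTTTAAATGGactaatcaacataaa
AT3G53050 (chr3:19668999-19669038): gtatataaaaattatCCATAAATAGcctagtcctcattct
ACT7 (chr5:3051079-3051118): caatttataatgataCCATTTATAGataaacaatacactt
HAC5 (chr3:4146150-4146189): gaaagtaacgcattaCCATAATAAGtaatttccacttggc
AT2G46308 (chr2:19009907-19009946): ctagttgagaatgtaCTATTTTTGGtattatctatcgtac
None of the unshared sequences shown holds a CArG box, although 21 of the 330 unshared sites had one. Of the shared sites 14.5% had a CArG box, 31.1% a one-sided box and 24.2% an open box. For comparison, the 3 shared sites with the highest −log10 q that held a box carried CArG boxes.
ZF14 (chr1:21655771-21655810): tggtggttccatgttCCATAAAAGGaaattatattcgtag
AT3G32920 (chr3:13483988-13484027): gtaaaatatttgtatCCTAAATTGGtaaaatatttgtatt
AT1G19330 (chr1:6683032-6683071): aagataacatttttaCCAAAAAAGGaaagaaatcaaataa
Each site is named by the gene whose start is nearest, which says nothing of regulation.

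The bases just outside the box differed between the sets. Shared sites tended to have T at the positions 2 and 3 bases before the box and A at the positions 2 and 3 bases after it. Both bases were present on both sides of 19.4% of the shared boxes, on 1 side of 54.9% and on neither side of 25.7%. Where both sides have them, the box sits in the middle of a longer A and T symmetric sequence. At AT1G19330 all 4 of these positions match, and at ZF14 and AT3G32920 3 of 4 match. Of the unshared sequences above, HAC5 matches at all 4 positions, AT5G41660 at 3, AT3G53050 at 1 and the other 7 at 2. Of the 16 unshared sites from which these sequences were chosen, 3 matched at 3 or 4 positions, the third of them AT1G75580, which is not shown because its summit lies in an untranslated exon.

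Over all sites, 176 of the 330 unshared sites and 1216 of the 1922 shared sites had a box of 1 of the 3 kinds within 50 bp of the summit. Among these, 21.6% of the unshared boxes (38 of 176, 95% interval 16.2 to 28.2%) matched at 3 or 4 of the 4 positions, against 59.95% of the shared boxes (57.2 to 62.7%). The difference was -38.4 percentage points (Newcombe interval -44.4 to -31.2). The mean number of matches was 1.88 ± 0.883 (SD, 176 boxes) at unshared sites and 2.63 ± 1.01 (SD, 1216 boxes) at shared sites. The full match at all 4 positions was found at 2.84% of the unshared boxes (5 of 176) and at 19.4% of the shared boxes (236 of 1216). Of the 150110 boxes of these kinds on the 5 chromosomes, 12.2% matched at 3 or 4 positions, so the unshared boxes lay between the genome and the shared sites. All intervals on shares of sites cover counting error only, since sites of a list are not replicates of an experiment. These 4 positions were picked after the bases beside the boxes had been seen, and the same boxes gave the counts.

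**Figure D1:**
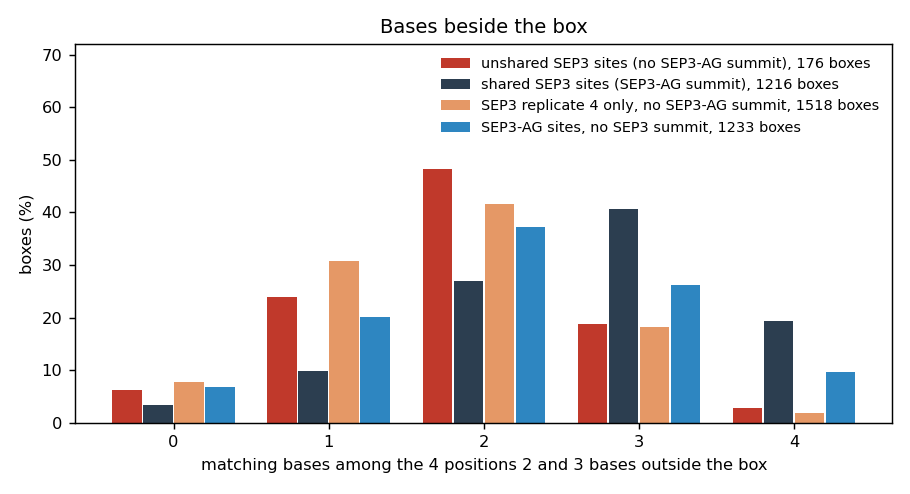
Share of boxes (y axis, %) by the number of matching bases among the 4 positions that lie 2 and 3 bases outside the box on either side (x axis, 0 to 4), for 4 sets of sites. The unshared sites (red) peak at 2 matches, with 48.3% of their boxes, and the shared sites (dark) at 3 matches, with 40.5%.

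For each kind of box the share was lower at unshared than at shared sites. Among CArG boxes, 9.52% of the unshared boxes (2 of 21) and 67.3% of the shared boxes (187 of 278) matched at 3 or 4 positions. The unshared CArG boxes did not differ detectably from all CArG boxes of the genome, of which 12.98% matched (difference -3.46 points, -10.4 to 15.9). Among one-sided boxes the shares were 21.5% and 60.4%, beside 11.6% in the genome. Among open boxes 19 of 76 and 196 of 365 matched (the latter 53.7%), beside 12.6% in the genome. On each of the 5 chromosomes the unshared share, 6.90 to 27.6%, was below the shared share, 55.8 to 65.04%. In 5 bins of SEP3 replicate 4 fold enrichment with equal numbers of sites, the unshared share was 12.5 to 28.3% and the shared share 51.0 to 65.1%. With the shared sites weighted to the strength of the unshared sites, the difference was -34.8 points (-41.3 to -27.3). All these splits use the boxes on which the 4 positions were picked. They describe the same difference again and are not separate support for it.

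Base by base, T stood 2 bases before the box, or A 2 bases after it, on 44.9% of the 352 box sides of unshared sites and on 68.0% of the 2432 box sides of shared sites. At 3 bases from the box the shares were 49.1% and 63.5%. At the base next to the box they were 32.1% and 40.7%, and at 4 bases 42.05% and 37.7%. The share was thus lower at unshared sites at 1, 2 and 3 bases from the box, with the widest gap at 2, and higher at 4 bases. Over all boxes of the genome the shares at these distances were 33.1 to 34.3%.

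Sites of other classes were compared in the same way. SEP3-AG sites without any SEP3 summit, which were 3720 summits of SEP3-AG replicate 1 seen in replicate 2 or 3, matched at 3 or 4 positions in 35.9% of 1233 boxes, which was 14.3 points above the unshared sites (interval of unshared minus these, -20.4 to -7.19). The 3428 summits found in SEP3 replicate 4 alone and without SEP3-AG matched in 19.9% of 1518 boxes, and the unshared sites differed from them by 1.70 points (-4.13 to 8.62), an interval that includes 0. Unshared sites with a SEP3Δtet-AG summit matched in 43.8% of 16 boxes, and shared sites with one in 67.2% of 947 (difference -23.4 points, -44.3 to -0.14). Without a SEP3Δtet-AG summit, 19.4% of 160 unshared boxes and 34.6% of 269 shared boxes matched, and the difference was -15.2 points (-23.2 to -6.49), smaller than the -38.4 points over all boxes.

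CArG boxes themselves were less frequent at the unshared than at the shared sites, with no detectable difference among the sites without a SEP3Δtet-AG summit. A CArG box lay within 50 bp of 21 of the 330 summits (6.36%, 4.20 to 9.53%), against 14.5% of shared sites, a difference of -8.10 points (-10.8 to -4.59). Among sites without a SEP3Δtet-AG summit the shares were 6.35% of 299 and 6.58% of 486, a difference of -0.23 points (-3.64 to 3.62). Among sites with one they were 2 of 31 and 17.1% of 1436. A box with at most 1 mismatch to the CArG box was found at 44.8% and 63.3%, a difference of -18.5 points (-24.2 to -12.7), and among sites without a SEP3Δtet-AG summit -8.81 points (-15.9 to -1.61). Of all 1177695 tiles into which the 5 chromosomes were divided, each as long as the window searched, 0.594% held a CArG box and 11.6% a box with at most 1 mismatch. Positions 1000 bp to either side of the unshared summits held them in 0.303% and 9.70% of windows. Both kinds of box were thus concentrated at the unshared summits, and less so than at shared sites. The lower shares were not particular to the unshared sites. A CArG box was at 4.96% of sites found in SEP3 replicate 4 alone and at 5.75% of SEP3-AG sites without SEP3. With at most 1 mismatch these shares were 42.7% and 43.5%. Every interval of the difference of the unshared sites from these sets included 0.

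One-sided boxes were found at 24.2% of the unshared sites and 31.1% of shared sites, a difference of -6.87 points (-11.7 to -1.56), against 3.51% of tiles. Without a SEP3Δtet-AG summit the difference was -1.97 points (-8.02 to 4.35), an interval that includes 0. Open boxes were found at 24.8% and 24.2%, a difference of 0.65 points (-4.12 to 5.93), against 6.81% of tiles. None of the 3 kinds was found at 154 unshared sites (46.7%), compared with 36.7% of shared sites. The share was higher at sites found in SEP3 replicate 4 alone, 55.7%, and at SEP3-AG sites without SEP3, 66.9%. Unshared sites were 9.05 points (3.41 to 14.6) and 20.2 points (14.6 to 25.7) below these. For 114 unshared sites (34.5%) neither these boxes nor a CArG box with 1 mismatch was found in the window, against 21.1% of shared sites. At sites of SEP3 replicate 4 alone it was 40.7%, and at SEP3-AG sites without SEP3 46.7%. Where the best match had exactly 1 mismatch, it was at an inner C or G in 59.1% of 127 unshared sites and in 57.6% of 939 shared sites.

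The symmetric open box, which was not among the planned features, was more frequent at sites with SEP3 than at SEP3-AG sites without SEP3. It was found at 42 of the 330 unshared sites (12.7%, 9.56 to 16.8%) and also at 12.7% of shared sites, with a difference of -0.02 points (-3.56 to 4.25). The sites found in SEP3 replicate 4 alone and without SEP3-AG had it at 8.55%, which was 4.18 points less than the unshared sites (0.86 to 8.31). SEP3-AG sites without SEP3 had it at 2.02% (75 of 3720), which was 10.7 points less than the unshared sites (7.50 to 14.8). These sets come from different libraries and were not matched for peak strength. It occurred in 0.366% of tiles and in 0.606% of the windows 1000 bp from the unshared summits. Among the 76 unshared sites whose best box was open, CTAAAAATAG (or CTATTTTTAG on the other strand) was found 14 times and CTATAAATAG 12 times. AT5G44900 and CRK, the 2 unshared sites with the highest −log10 q, both carried CTATTTTTAG, 20.5 and 2.5 bp from the summit.

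**Figure D2:**
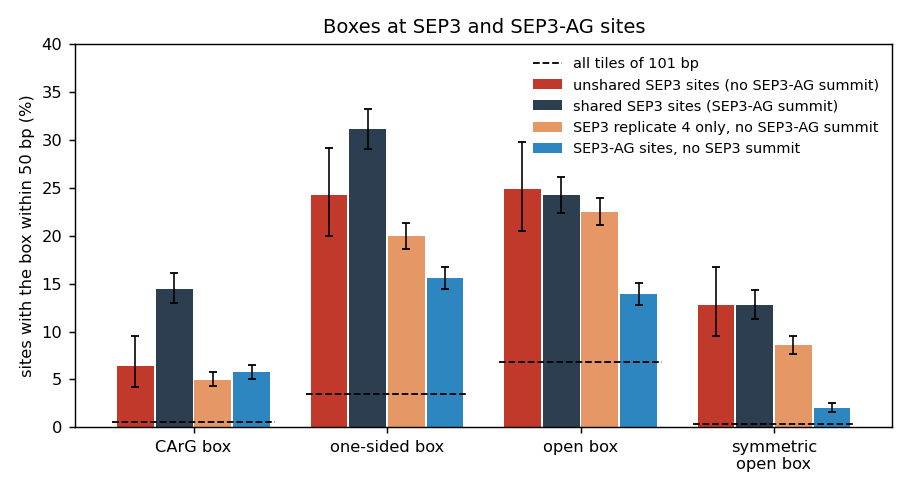
Share of sites (y axis, %) with each kind of box within 50 bp of the summit in 4 sets of sites, with 95% Wilson intervals, and the share of all tiles of that length as dashed lines. The unshared sites (red) lie below the shared sites (dark) for CArG and one-sided boxes and beside them for open and symmetric open boxes.

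Boxes lay close to the summits, with a median distance of 16.5 bp from the summit to the centre of the best box at unshared sites and 14.5 bp at shared sites. Pairs of boxes were also counted, since a tetramer can hold a pair. Within 200 bp of the summit, 119 unshared sites (36.1%) had 2 or more CArG boxes of at most 1 mismatch, and 1 of these (0.84%, 0.15 to 4.61%) had a pair whose starts were 36, 37, 46, 47 or 57 bp apart. Of 885 shared sites with 2 or more boxes, 62 had such a pair (7.01%, 5.50 to 8.88%), and of 980 SEP3-AG sites without SEP3, 103 (10.5%). Of 1071 sites found in SEP3 replicate 4 alone and without SEP3-AG, 33 had one (3.08%, 2.20 to 4.30%). That share lies inside the interval of the unshared sites, whose value rests on 1 site. The study chose these spacings on the SEP3-AG regions of the same libraries, so the lower share at sites without SEP3-AG is a description.

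Of 7 other short motifs none differed detectably between the unshared and the shared sites. CACGTG, the G-box bound by bHLH and bZIP factors, was at 3 of the 330 unshared sites (0.909%, tiles 1.11%). TTGACC and TTGACT, core sequences of WRKY factors, were at 4.24% (tiles 4.08%) and 7.58% (tiles 6.38%), and TGGGCC, bound by TCP factors, was at 0.909% (tiles 1.56%). GAGAGA, a repeat bound by BPC factors, was at 6.36% (tiles 9.15%) and TGTCTC, bound by auxin response factors, at 3.64% (tiles 5.47%). AAACCCTA, the telo-box, was at none of the 330 sites (interval 0 to 1.15%, tiles 1.34%). For each of the 7 motifs the interval of the difference from the shared sites included 0. The median GC content within 50 bp was 28.7% at unshared and 27.7% at shared sites. Within 200 bp the order was reversed, 28.9% and 29.9%. No direction is therefore drawn for GC content.

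The complex with the altered tetramerisation region, SEP3Δtet-AG, was not used to choose the sites and was largely missing from them as well. A SEP3Δtet-AG summit lay within 200 bp of 29 unshared sites in replicate 1 (8.79%) and of 10 in replicate 2 (3.03%), and 31 sites (9.39%, 6.70 to 13.03%) had one in either. Of all 2252 replicated SEP3 sites, 65.1% had one. Of shared sites, 72.9% had a summit in replicate 1, 63.1% in replicate 2 and 74.7% in either, so the difference was -65.3 points (-68.6 to -61.2). SEP3Δtet-AG shares both DNA-binding domains and the double purification with SEP3-AG, and the contribution of each to the difference was not tested. Where unshared sites had a SEP3Δtet-AG summit, it ranked low in its list, at a median percent rank of 80.5 in replicate 1 and 80.1 in replicate 2 (0 is the strongest), against 27.6 and 33.8 for shared sites.

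**Figure D3:**
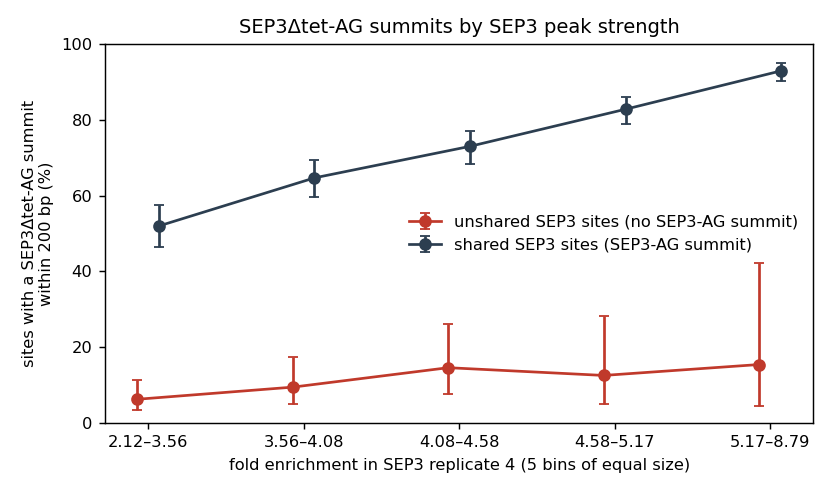
Share of sites with a SEP3Δtet-AG summit within 200 bp (y axis, %) in 5 bins of SEP3 replicate 4 fold enrichment (x axis), with 95% Wilson intervals. The unshared sites (red) lie between 6.21 and 15.4% and the shared sites (dark) between 52.0 and 92.9%.

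The gap was present at every strength of the SEP3 peak. In the weakest bin 9 of 145 unshared sites (6.21%) had a SEP3Δtet-AG summit, against 52.0% of 306 shared sites. In the strongest bin the shares were 2 of 13 (15.4%) and 92.9% of 437. Weighted to the strength of the unshared sites, the difference was -53.9 points (-57.8 to -49.3).

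The unshared sites were weaker than the shared sites in the SEP3 libraries, and since strength bears on whether a site is called at all, these values describe the selection and carry no test. Their fold enrichment in replicate 4, the ratio of signal at the summit to the background derived from the input, was 3.69 at the median (2.12 to 6.77), against 4.46 at shared sites. Their median percent rank in the list of replicate 4 was 35.97 (0 is the strongest), against 13.4, and in replicates 1, 2 and 3 it was 76.8, 67.6 and 73.8, against 48.9, 45.3 and 43.97. By library, 11 of the 330 had a summit in SEP3 replicate 1, 114 in replicate 2 and 259 in replicate 3, in lists of 473, 1225 and 1915 summits. Support came from 1 other SEP3 library for 281 sites, from 2 for 44 and from all 3 for 5. At shared sites 809 of 1922 had support from 2 or 3. The median distance from an unshared summit to the nearest other SEP3 summit was 19 bp. Peak names in the list of replicate 4 carried another library prefix than in the other 8 lists, so that the list every site was taken from may belong to another batch, and the batch and the choice of sites cannot be told apart. Starting from replicate 3 instead, with replicate 1 or 2 in support, gave 49 sites, of which 12.2% had a SEP3Δtet-AG summit and where the difference in matching flanking bases was -39.8 points (-52.7 to -20.9).

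**Figure D4:**
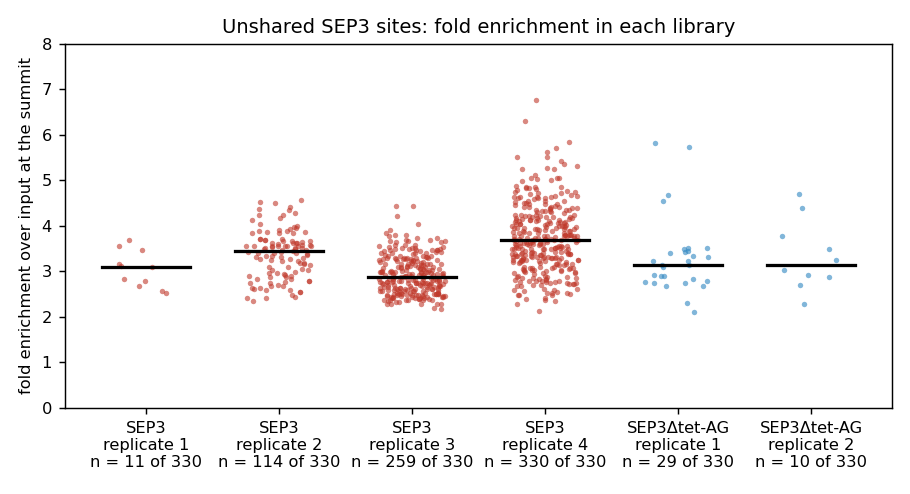
Fold enrichment over input at the summit (y axis) for each unshared site that had a summit in a library (x axis: 4 SEP3 libraries in red, 2 SEP3Δtet-AG libraries in blue), with the median as a black line and the number of sites below each name. The 3 other SEP3 libraries give medians of 3.10, 3.44 and 2.89 and replicate 4 gives 3.69.

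Absence of SEP3-AG was defined by summits, and the peak threshold of each library bears on it, since weak binding need not give a called summit. The nearest SEP3-AG summit was 3386 bp away at the median, with a range of 206 to 29156 bp. For 248 of the 330 sites none lay within 1000 bp and for 117 none within 5000 bp. However, 41 sites lay inside a SEP3-AG peak region whose summit was elsewhere, and 54 had a SEP3-AG summit at 200 to 400 bp. The 41 had a SEP3Δtet-AG summit in 19.5% of cases, against 7.96% of the other 289. The sites just inside the limit were HAC5 at 206 bp, AT4G21870 at 207 bp and ABCG34 at 211 bp, with replicate 4 fold enrichments of 4.33, 4.86 and 3.65. Just outside it lay AT1G30730 and IPT7 at 198 bp and AT3G48600 at 197 bp, with 5.18, 3.03 and 3.84. The values on either side overlapped. Requiring that no SEP3-AG region came within 200 bp left 274 sites, and the difference in flanking bases was then -42.5 points (-48.3 to -35.1).

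The unshared sites lay mostly outside coding sequence. Promoters, the 1000 bp upstream of a gene start, held 103 summits (31.2%, 26.5 to 36.4%), introns 51 (15.5%), untranslated exons 29 (8.79%) and coding exons 10 (3.03%). The remaining 137 (41.5%) lay elsewhere, outside protein-coding genes and these promoters, a class that can include pseudogenes and non-coding genes. The genome had 14.0005% of its bases in promoters, 15.2% in introns, 10.6% in untranslated exons, 28.3% in coding exons and 31.9% elsewhere, so promoters were over and coding exons under their share of the genome. Shared sites had 34.2% in promoters, and the difference of -3.02 points (-8.25 to 2.57) included 0. Sites in the class elsewhere were more frequent among the unshared than the shared sites, 41.5% against 32.1%, a difference of 9.41 points (3.81 to 15.2). This was not particular to the unshared sites. Sites found in SEP3 replicate 4 alone and without SEP3-AG had 40.9% there, a difference of 0.59 points (-4.86 to 6.21). SEP3-AG sites without SEP3 had 32.6%, a difference of 8.88 points (3.47 to 14.5). The extent of this class depends on the promoter length. With promoters of 2000 bp the difference in promoter share was 1.91 points (-3.86 to 7.74).

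**Figure D5:**
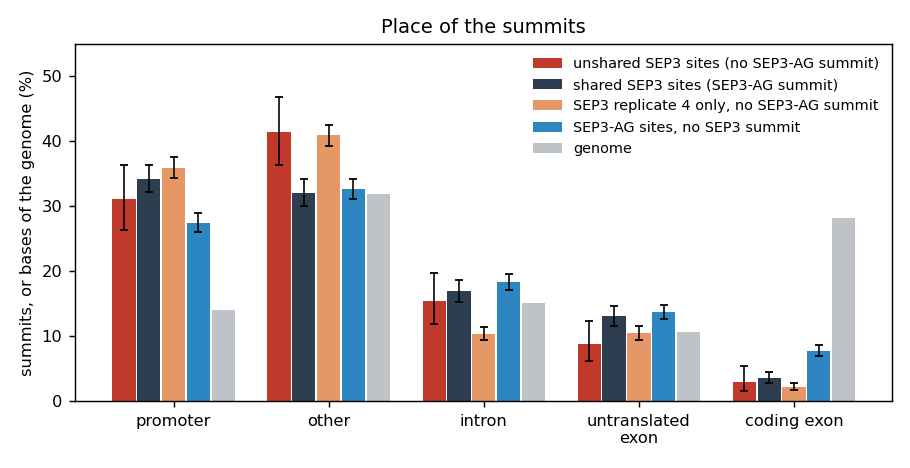
Share of summits in each annotation class (y axis, %) for 4 sets of sites, with 95% Wilson intervals, and the share of genome bases in grey. The unshared sites (red) have 41.5% of summits in the class other, which is outside protein-coding genes and their promoters, and the shared sites (dark) have 32.1%. Sites found in SEP3 replicate 4 alone and without SEP3-AG have 40.9%.

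The distance to the nearest gene start was 1120 bp at the median for unshared and 880 bp for shared sites, with upper quartiles of 2064 and 1865 bp. It was 1014 bp at the median for sites found in SEP3 replicate 4 alone and 1046.5 bp for SEP3-AG sites without SEP3. The 5 chromosomes held 92, 53, 57, 47 and 81 unshared sites, 27.9, 16.1, 17.3, 14.2 and 24.5%, beside 25.5, 16.5, 19.7, 15.6 and 22.6% of the genome. Bins of 500000 bp in which protein-coding genes covered under 30% of the bases, which were 17.2% of the genome, held 25 unshared sites (7.58%) and 7.80% of shared sites. Annotated pseudogenes, which were 8.78% of the genome, held 6 unshared summits (1.82%) and 0.676% of the shared summits, a difference of 1.14 points (0.05 to 3.25). They held 0.963% of the summits found in SEP3 replicate 4 alone and 2.18% of the SEP3-AG summits without SEP3. The differences of the unshared sites from these had intervals that included 0 (-0.20 to 2.96 and -1.47 to 1.77). The reads kept for the lists were those placed at 1 position, which limits peaks in repeats for all sets.

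Genes near the unshared sites were taken from 3000 bp upstream of the start to 1000 bp downstream of the end, and 470 of 27444 protein-coding genes (1.71%) had at least 1 unshared site there. Of these 470 genes, 385 (81.9%) had no shared site. Shared sites were near only 2678 of all 27444 genes (9.76%), so most genes had no shared site in any case. The 385 therefore do not mark a separate set of genes. No gene was near 38 unshared sites. Of 39 MADS-box genes of the MIKC type, to which SEP3 and AG belong, 1 had an unshared site near, and 19 of 39 had a shared site, among them AG, SEP3, AP1, AP3 and PI. Of 40 genes of the floral meristem and organs, 1 had an unshared site near and 9 a shared site, LFY and KNU among them. Of 19 genes of gibberellin synthesis and response, none had an unshared site and 2 had a shared site, GAI and GID1A. For all 3 lists the number near unshared sites was at most 1, beside the 1.71% of all genes.

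The 2 genes of the lists were STK and HEC1. SEEDSTICK (STK) is a MADS-domain factor of ovule identity, and its site lay in an intron, 2671 bp from the start of the gene (chromosome 4, summit 6238610), with fold enrichments of 2.88 in SEP3 replicate 3 and 4.20 in replicate 4. HECATE1 (HEC1) encodes a bHLH factor of the gynoecium, and its site lay 1450 bp upstream of the start (chromosome 5, summit 26764542), with 3.47 in replicate 3 and 4.37 in replicate 4. Neither had a summit in replicates 1 and 2 or in SEP3Δtet-AG, and neither window held a box of the 3 kinds. The SEP3-AG region nearest to the HEC1 site was 83 bp away, and HEC1 also had a shared site near.

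Across the 4 SEP3 libraries, the site upstream of AT5G44900, a gene for a TIR domain protein (chromosome 5, summit 18132915, 2300 bp upstream), had fold enrichments of 3.56, 4.17, 4.44 and 6.77 in replicates 1 to 4. It was the highest of the unshared sites in replicate 4, at a percent rank of 1.05, and the nearest SEP3-AG summit was 4297 bp away. The site in the promoter of ACT7, which encodes an actin of growing tissue, had 3.69, 3.69, 3.46 and 5.25. HAC5, a histone acetyltransferase, had 3.10, 3.85, 3.52 and 4.33 in its promoter, and also 5.73 in SEP3Δtet-AG replicate 1, which was above its SEP3 values, and it lay inside a SEP3-AG peak region. AT2G46308, an uncharacterized protein, had 2.53, 2.92, 3.74 and 4.02. AT4G31170, a protein kinase, had 3.16, 3.02, 3.28 and 4.52. These 5 were the only unshared sites present in all 4 libraries, and in each of them replicate 4 was the highest.

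Among the 10 unshared sites with the highest −log10 q in replicate 4, 7 had support from replicate 3 only. CRK, a calcium-dependent-protein-kinase-related kinase, had 3.23 in replicate 3 and 6.32 in replicate 4, at 1793 bp upstream of its start. AT5G35460, uncharacterized, had 3.52 and 5.86 and lay in a gene-poor bin. Its summit was 6886 bp past the start of the gene and beyond the end of the gene. AT5G63740, a RING/U-box protein, had 3.64 and 5.35. These last 2 had no box in the window and had a SEP3Δtet-AG replicate 1 summit, of 3.52 and 3.42. AT4G11970, a YTH domain protein, had 3.73 and 5.71 in its promoter, 595 bp upstream, and AT4G22120, of the ERD family, had 3.84 and 5.63.

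ESR1, an AP2/ERF factor of shoot regeneration, had its site 51 bp upstream of the start, with 3.56, 4.04 and 5.31 in replicates 2, 3 and 4. AT1G75580, a SAUR-like protein of the auxin-responsive family, had 4.497, 3.09 and 5.27 in the same 3 libraries, in an untranslated exon. AT4G03113 had 3.35 and 5.53 in replicates 3 and 4, and AT3G53050, a lectin-domain protein, 3.67 and 4.79 in its promoter. None of these 4 had a summit in SEP3Δtet-AG or in SEP3 replicate 1.

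The 21 unshared sites with a CArG box were not the strongest of the set. Their highest replicate 4 fold enrichment was 4.67, in an intron of AT1G18540, which also had 4.003 in replicate 2. The lowest was 2.85, in an intron of AT4G02850. Near MYB30, which encodes a MYB factor of the defence response, the site had 3.27 in replicate 3 and 4.16 in replicate 4, and near TAA1, an enzyme of auxin synthesis, 2.78 and 3.27. In the promoter of BBX9, a B-box factor, it had 4.38, 3.48 and 3.95 in replicates 2, 3 and 4. Of the 21 boxes 7 read CCAAAAATGG or its reverse complement. The strongest bin of SEP3 replicate 4 held 13 unshared sites and none of them had a CArG box, against 18.99% of 437 shared sites. These 13 sites are too few to tell this from the shared share. In the weaker bins, from the weakest up, 5.52, 7.06, 9.09 and 6.25% of unshared sites had a CArG box.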

How the data were processed

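DNA bound in vitro by SEP3, SEP3-AG or SEP3Δtet-AG was measured in 9 libraries against 1 input DNA sample. Reads were trimmed by the authors and mapped to the nuclear TAIR10 genome (Bowtie2), single-position reads were kept without duplicates (SAMtools), and peaks were called with MACS2 per library, unpooled, at a q-value of 0.0001. The deposited lists give, per summit, a fold enrichment (a ratio over the background from the input), p- and q-values as −log10, positions, and a whole-number score, which was not used. The lists hold no reads, so depth was not measured here. The paper reports read numbers and the share of reads in peaks for each library. That share rose from SEP3 replicate 1 to replicate 4. In every SEP3 library it was below that of the SEP3-AG libraries. Lists held 473 to 9588 summits.

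Summits were 1-based, and distances were between summits. Sets were compared with 95% Wilson intervals of shares and Newcombe intervals of differences, which count sites and not experiments. Motifs were searched on both strands within 50 bp of the summit. Genes, classes and sequences came from the RefSeq TAIR10.1 annotation, whose chromosome lengths hold all peak coordinates. It has no centromere positions, so gene-poor bins were used instead of the planned distance. Named sites were the 10 with the highest −log10 q, those in all 4 SEP3 libraries and those near listed genes. Other sites were named after their values had been seen, including those with CArG boxes and those at the distance limit. Sequences were picked from the named sites and from the strongest open boxes, and not all of these were shown. The open boxes of AT4G21870, CVP2 and AT5G47980, with 2, 2 and 0 flank matches, were left out. The shown sequences therefore do not give the share of symmetric boxes. Of the 82 unshared sites with an open box, 42 had the symmetric form. Members, lists and motifs were chosen with earlier results of these data known. The scripts were tested on simulated peak lists and used Python 3.11.15, numpy 2.4.6, pandas 2.3.3 and scipy 1.17.1. Alternatives changed the distance, the support, the SEP3-AG criterion, the threshold, the windows, the promoter definition and the libraries.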

Additional observations from a re-analysis of the deposited data

Results flagged for a closer look

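The number of summits per SEP3 library was flagged because 1 of the 4 libraries stood far from the others. Replicates 1 to 4 had 473, 1225, 1915 and 8916 summits, and the gap from 8916 to the next library was 0.8292 of the whole range, just above Dixon's critical value for 4 samples. Chance flags about 1 in 20 groups. The number of peak regions, 458, 1193, 1800 and 8274, gave 0.828 and was not flagged. The library concerned, replicate 4, is the one whose list every unshared site was taken from and the one with another name prefix. Without it, 49 sites were found, and the difference in flanking bases between unshared and shared sites was -39.8 points.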

How the results depend on the processing

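No paired analysis was possible because the comparisons are between sets of sites in peak lists, and no model was fitted over samples. The 8 planned results were recomputed in 118 ways, 93 of which kept direction and threshold side or stayed within the spread. The number of sites fell from 330 to 49 when a summit was required in at least 2 of SEP3 replicates 1 to 3, and was 49 to 423 when a library was left out, with 120 without SEP3 replicate 3 and 49 without replicate 4. The share of replicated SEP3 sites without SEP3-AG was 16.7% and 12.1% at distances of 100 and 400 bp, 5.71% with support from at least 2, 12.2% with the region criterion, 12.8% at −log10 q of at least 10, and 5.82 to 18.8% with a library left out. The share with a SEP3Δtet-AG summit was 3.03 to 14.4% with a library left out, the lowest without SEP3Δtet-AG replicate 1, and its difference kept its direction in all 16 alternatives. The difference in CArG boxes was -9.94 points (-16.4 to 1.90) with support from at least 2 and -9.14 to -7.91 with a library left out, where the interval included 0 without SEP3 replicate 4 (-8.84). The difference in promoter share was 0.12 points at 100 bp and 1.91 with promoters of 2000 bp, and -8.93 to -1.38 with a library left out, where its interval excluded 0 without SEP3-AG replicate 3 (-5.22). The difference in GC content, 0.99 points, was 0 with support from at least 2 and with weighting by strength, -0.998 within 200 bp, and 0 to 1.98 with a library left out. The causes were not tested. The difference in flanking bases, added after seeing the data, was -46.5 to -34.2 points in 15 alternatives.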
